A study of Homo sapiens with 8 samples.

Results

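The 9 genes described here encode nucleolin (NCL), nucleophosmin (NPM1) and the core proteins of the 2 families of small nucleolar ribonucleoproteins (snoRNPs), NOP56, NOP58 and FBL of the box C/D family and DKC1, NHP2, NOP10 and GAR1 of the box H/ACA family. They were taken by name, and their positions came from the RefSeq table of GRCh38.p14, which holds 19974 protein-coding genes on chromosomes 1 to 22 and X. Opened DNA was mapped by KAS-seq, in which N3-kethoxal reacts with unpaired guanines in living cells and the labelled fragments are enriched and sequenced. Every title names HEK293T, a long-established line from human embryonic kidney, although the cell line field carries other numbers in most samples. Treated cells stood for 10 min in 0.5 mM vitamin C, the reducing agent ascorbic acid, and control cells received none. Labelling in both groups took 10 min at 5 mM N3-kethoxal. Each group had 2 labelled libraries with a peak list each; 4 libraries of input DNA were not used here.

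SnoRNPs modify ribosomal RNA in the nucleolus. In the box C/D particles FBL (fibrillarin) is the 2′-O-methyltransferase and NOP56 and NOP58 form the scaffold, whereas in the box H/ACA particles DKC1 (dyskerin) is the pseudouridine synthase and NHP2, NOP10 and GAR1 are its partners. Most human snoRNAs are cut out of introns, so the transcription of a host gene also makes the snoRNA. Nucleolin binds ribosomal RNA and its precursors, and nucleophosmin is a chaperone of the outer nucleolar layer.

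The lists held 30351 and 24111 peaks in the controls, against 9816 and 9896 with vitamin C. Control libraries had a mean of 0.817 and 0.850 labelled fragments at a position of the genome, and vitamin C libraries 1.22 and 0.871, as worked out from each peak's fold and p. Both vitamin C values were thus above both control values by this measure. It is not a count of reads, vitamin C 1 was scaled by 0.776 in peak calling, and input depth was not examined. Whether depth bears on the list lengths was not tested. Among the genes listed for this cell line, VIM, HOXA10 and LIN28B had peaks in both controls and CDH2, PAX2 and INA had none. Among the genes listed for other cell types, ALB, a liver gene, had a peak in 1 vitamin C library and in neither control.

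With vitamin C, less DNA lay under peaks at nearly all of these genes. The value per gene is the number of bases of the gene, widened by 1 kb on each side, that lie under a peak. Over the 9 genes, of 138217 bp, control peaks covered 57961 and 50083 bp and vitamin C peaks 31635 and 28778 bp. Both vitamin C totals lay below both control totals, and the log2 ratio of the means was -0.84. The log2 ratio of the length of all peaks in the lists was -1.57. In these bulk libraries, fewer cells with opened DNA, less opening per cell and a lower yield of labelling or enrichment cannot be told apart.

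Covered length was lower in both vitamin C libraries than in either control at 8 of the 9 genes, NOP10 being the exception, and was higher at none. The same pattern held for 67.0% of all protein-coding genes with a peak in any library, and the opposite one for 0.169%. Among genes with a peak in both controls, which include 8 of the 9, it held for 90.3%, so the count at these genes is near the background. With 2 libraries against 2, the smallest two-sided exact permutation p is 0.333, and each of the 8 genes reached it (adjusted p = 0.496 over 9486 genes with a peak). The labels do not say whether replicates came from separate cultures, so this p measures only the spread between libraries.

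The share of control coverage that remained ran from 72.6% at NCL to 21.8% at FBL, with NOP10 at 0. Of the 8 genes with a peak in both controls, 0 had none with vitamin C, a pattern seen at 26.8% of all protein-coding genes with a peak in both controls. Peaks in all 4 libraries were present at 7 of the 8, against 49.7%. At these 8 the median share of control coverage that remained was 49.8%, against 24.4% over all 7047 such genes. Genes with much coverage kept more of it: the median was 37.9% over the 393 genes with more than 5000 bp covered in the controls. Of these 393 genes, 391 had peaks in all 4 libraries (99.5%) and 0 had peaks in both controls and none with vitamin C. The members' counts of kept peaks were thus no higher than at widely covered genes. When all lists were shortened to their 9816 peaks of lowest q, 5 members were lower, 1 was higher (NOP58) and 3 overlapped (NCL, NOP10 and GAR1). In these lists 64.4% of the 3883 genes with a peak in both controls were lower, and 4.01% of the 6858 with a peak in any library were higher. NOP10 had no peak in them, and GAR1 had none in control 1.

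**Figure D1:**
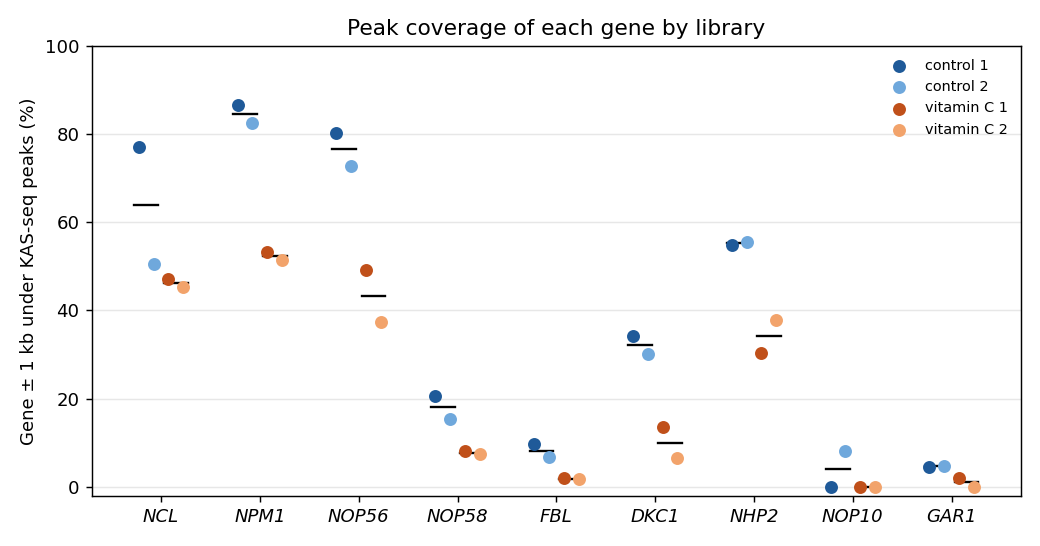
Percent of each gene, widened by 1 kb on each side, that lay under KAS-seq peaks in the 2 control (blue) and 2 vitamin C (orange) libraries, with black bars at the group means. NPM1 and NOP56 sat above 70% in both controls and below 54% with vitamin C, and FBL, NOP10 and GAR1 stayed under 10% in every library.

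**Figure D2:**
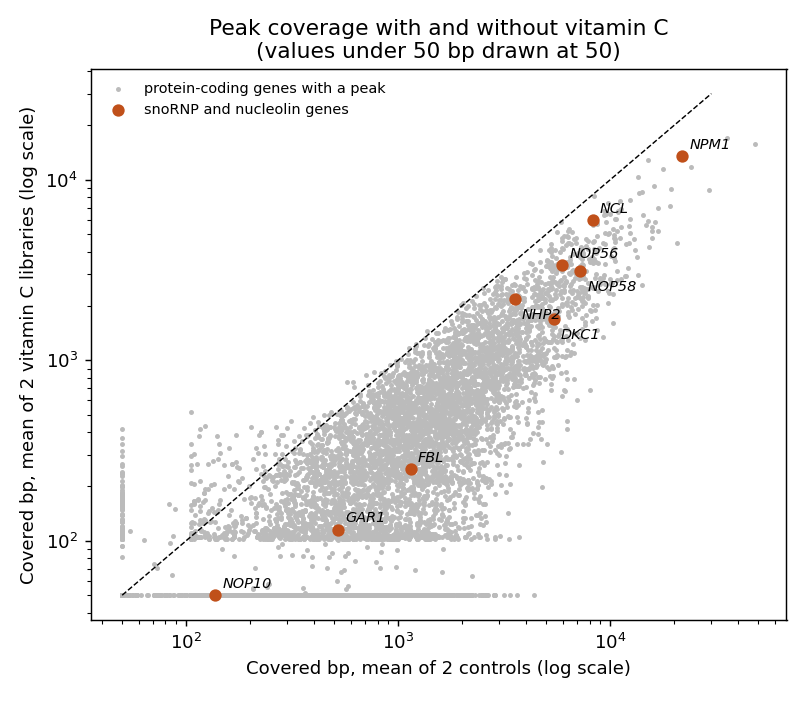
Mean covered bp of each protein-coding gene with a peak in the controls (horizontal, log scale) and with vitamin C (vertical, log scale), with the snoRNP and nucleolin genes in orange the line of equal values dashed and values under 50 bp drawn at 50. The 9 points lie below the line, NPM1 at 21831 and 13489 bp being the farthest along it.

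NPM1 (chromosome 5, 171387116 to 171410900, plus strand) was the most widely opened member. Peaks covered 86.7% and 82.6% of its window in the controls, compared with 53.3% and 51.4% after treatment, a mean of 21831 ± 741 bp against 13489 ± 346 bp (SD, n = 2). By covered length it held rank 5 of 9486 genes in the controls and rank 3 with vitamin C. The groups did not overlap, and the difference of -8342 bp was larger than the spread between replicates.

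The number of NPM1 peaks went the other way. The controls had 7 and 9 peaks and the vitamin C libraries 16 and 18, with median widths of 4038 and 2033 bp in the controls but 695 and 737 bp with vitamin C. The control peaks were thus longer stretches and the vitamin C peaks shorter ones. No base covered in a vitamin C library here was free of peaks in both controls, and of the 9624 bp covered in both vitamin C libraries 99.2% were covered in both controls. Fewer bases with more peaks, in both vitamin C libraries against either control, was seen at 0.525% of genes with a peak in both controls. It was seen at 21 of the 393 genes with more than 5000 bp covered in the controls and at 11 of 80 cytosolic ribosomal protein genes with a peak in both controls. NPM1 was the only member with this pattern, which was looked for after its peaks had been seen.

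In the full lists the sequence upstream of the first NPM1 start lay under peaks in the controls only. The 250 bases before that start, at chr5:171386866-171387115, lay under peaks for 199 and 250 bases in the controls and for 0 bases in both vitamin C libraries. In control 1 this was a separate peak of 304 bp with 13 fragments at its summit. That peak was not in the lists of equal length, where only control 2 covered this sequence. The first vitamin C peaks began 193 and 218 bp inside the gene. A second annotated start lies further in, and all 250 bases before it were covered in each of the 4 libraries. The upstream sequence (RefSeq, GRCh38.p14, plus strand) is shown because it is the only promoter of the 8 genes in the table at which control peaks covered an upstream window without vitamin C peaks. It holds neither of the motifs marked by capitals in the sequences further on.
NPM1 upstream: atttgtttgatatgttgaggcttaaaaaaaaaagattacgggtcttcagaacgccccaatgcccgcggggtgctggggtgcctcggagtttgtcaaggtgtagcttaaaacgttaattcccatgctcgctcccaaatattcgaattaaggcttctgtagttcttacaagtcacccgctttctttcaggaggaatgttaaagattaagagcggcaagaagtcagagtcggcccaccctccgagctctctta

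Peak heights at NPM1 also differed. The labelled level of a peak is the number of fragments over its summit relative to the mean of the library. Past the end of the gene the levels were 69.8 and 55.3 in the controls, against 48.2 and 50.5 with vitamin C, with summits 26140, 25509, 26114 and 26133 bp from the start. Deep inside the gene, where summits lay 15869, 15771, 15799 and 15808 bp from the start, the levels were 67.4 and 57.7 in the controls, compared with 42.5 and 51.7 after treatment. In both places each vitamin C value was below each control value. The peak over the end of the gene reached 5868 and 7115 bp past it in the controls and 5322 bp in vitamin C 1. In vitamin C 2 the peak over the end reached 452 bp past it, and a separate peak further on reached 3514 bp.

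**Figure D3:**
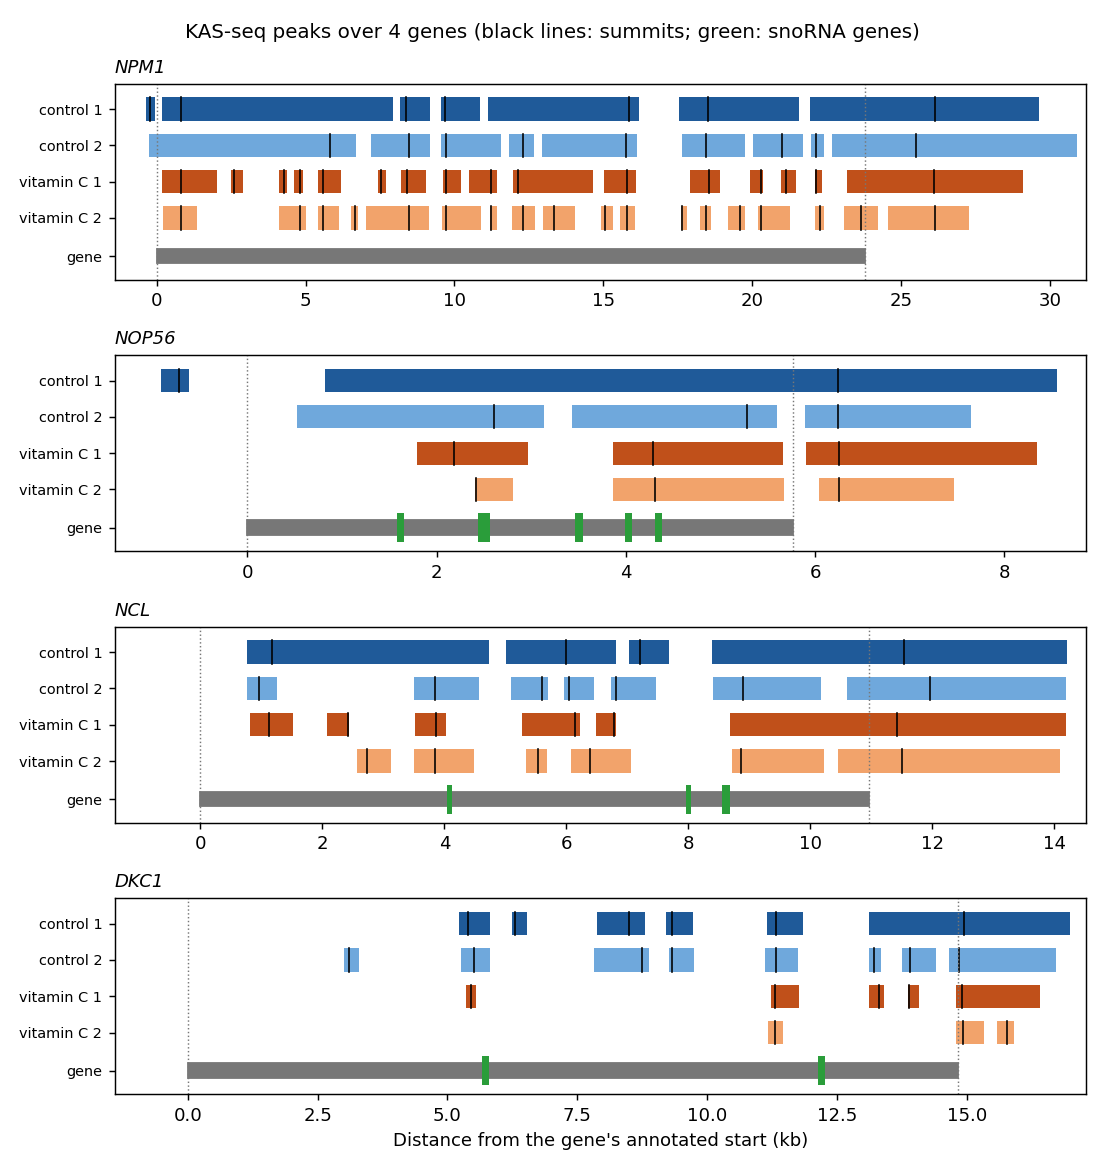
Peaks (bars) and their summits (black lines) over NPM1, NOP56, NCL and DKC1 in each library, by distance in kb from the annotated start, with the gene in grey and its snoRNA genes in green. NPM1 has 7 and 9 long control peaks and 16 and 18 shorter vitamin C peaks, and at all 4 genes peaks reach past the annotated end.

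NCL (chromosome 2, 231453531 to 231464484, minus strand) lost the smallest share. Its peaks covered 9995 and 6538 bp in the controls, against 6117 and 5883 bp with vitamin C, or 72.6% of the control mean. The controls differed widely between themselves, and control 2 lay only a little above vitamin C 1. The difference of -2266.5 bp was -538 bp without control replicate 1 and -3995 bp without control replicate 2. With lists of equal length the groups overlapped.

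The highest NCL peak lay past the end of the gene in every library. Its labelled levels were 64.9 and 54.1 in the controls, compared with 49.0 and 50.5 after treatment, at summits 583, 1014, 465 and 547 bp past the end. The values of the groups did not overlap, but the gap was small. The peaks reached 3257 and 3236 bp past the end in the controls, against 3232 and 3134 bp with vitamin C, so the far edge moved little.

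Of the 2 promoters shown next, neither lay under a peak in any library. The first peak at NCL began 770, 764 and 820 bp into the gene in control 1, control 2 and vitamin C 1 and 2564 bp in vitamin C 2. At NOP56 the first peak inside the gene began 821 and 529 bp from the start in the controls, against 1790 and 2409 bp with vitamin C. The 250 bases upstream of each start are given as RefSeq has them in GRCh38.p14, NCL at chr2:231464485-231464734 on the minus strand and NOP56 at chr20:2652382-2652631 on the plus strand. Capitals mark GGGCGG and its reverse complement CCGCCC.
NCL upstream: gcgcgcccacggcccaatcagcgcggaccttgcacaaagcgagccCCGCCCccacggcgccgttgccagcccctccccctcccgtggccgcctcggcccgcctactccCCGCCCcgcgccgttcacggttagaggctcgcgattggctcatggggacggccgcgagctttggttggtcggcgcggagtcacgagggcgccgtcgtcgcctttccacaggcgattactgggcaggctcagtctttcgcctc
NOP56 upstream: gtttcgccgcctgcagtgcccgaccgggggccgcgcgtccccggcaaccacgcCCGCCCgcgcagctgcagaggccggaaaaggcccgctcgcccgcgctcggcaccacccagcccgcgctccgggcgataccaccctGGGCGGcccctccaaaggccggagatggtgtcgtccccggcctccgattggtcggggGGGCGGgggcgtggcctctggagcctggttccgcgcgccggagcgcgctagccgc

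Both upstream windows were rich in G and C, at 72.0% for NCL and 78.0% for NOP56, against 46.4% for the first NPM1 window and a median of 58.0% over 35116 RefSeq promoters. GGGCGG on either strand was present in 6 of the 8 members in the table (DKC1, FBL, GAR1, NCL, NHP2 and NOP56) and in 42.6% of all promoters. The E-box CACGTG was present in NOP10 alone, and in 6.34% of all promoters. CTTTC on either strand was present at NCL, NHP2 and NPM1 and in 48.9% of promoters, and the longer CTCTTTC, which contains it, in none of the members and 6.44% of promoters. NOP58 has no entry in the promoter table.

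Among the box C/D proteins, NOP56 (chromosome 20, 2652632 to 2658393, plus strand) had the strongest single peak of the 9 genes. Covered length was 6236 and 5647 bp in the controls, compared with 3819 and 2909 bp after treatment, a mean of 5941.5 ± 416 bp against 3364 ± 643 bp (SD, n = 2). The highest summit lay 483 and 480 bp past the end of the gene in the controls and 495 and 495 bp past it with vitamin C. This position is inside IDH3B, which encodes a subunit of the mitochondrial isocitrate dehydrogenase and whose annotated end adjoins that of NOP56, so the peak could belong to either gene. Its labelled levels were 132 and 105 in the controls but 80.0 and 93.0 with vitamin C, from 108, 89, 98 and 81 fragments. All 4 peaks were in the top 1% of their lists by the authors' fold enrichment, at percentiles of 99.9, 99.9, 99.7 and 99.8.

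NOP58 (chromosome 2, 202265763 to 202303661) had its tallest peak near its lower-coordinate end and fewer peaks with vitamin C. It held 16 and 11 peaks in the controls, against 6 and 7 with vitamin C. Covered length was 8251 and 6181 bp in the controls, compared with 3226 and 2984 bp after treatment, with no overlap between groups. In lists of equal length the order turned, with 2377 and 2584 bp in the controls but 3226 and 2984 bp with vitamin C. The tallest peak was found in each library, with summits 223, 248, 177 and 186 bp from that end and 30, 28, 31 and 26 fragments over them. Relative to the library mean these fragments gave levels of 36.7 and 33.0 in the controls, against 25.3 and 29.9 with vitamin C. Of the bases covered in both vitamin C libraries 82.6% were covered in both controls, the lowest share among members with such bases.

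FBL (chromosome 19, 39834458 to 39846379, minus strand) lost its peaks inside the gene. Covered length was 1343 and 948 bp in the controls, compared with 264 and 236 bp after treatment. The controls had peaks with summits 301 and 252 bp and 5807 and 5804 bp from the start, control 1 had another at 1662 bp, and neither vitamin C library had a peak at these places. What stayed was 1 peak just past the end, with summits 142 and 95 bp past it in the controls, against 157 and 162 bp with vitamin C. Its labelled levels were 33.1 and 21.2 in the controls, against 18.8 and 16.1 with vitamin C.

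That remaining peak lies in the gap between FBL and the start of DYRK1B, a protein kinase gene on the same strand, and could belong to either gene. The 250 bases upstream of DYRK1B, at chr19:39834163-39834412 on the minus strand, were covered for 250 and 250 bases in the controls, compared with 217 and 193 after treatment. Their RefSeq sequence (GRCh38.p14) is shown because it was under a peak in all 4 libraries, with CACGTG and GGGCGG in capitals.
DYRK1B upstream: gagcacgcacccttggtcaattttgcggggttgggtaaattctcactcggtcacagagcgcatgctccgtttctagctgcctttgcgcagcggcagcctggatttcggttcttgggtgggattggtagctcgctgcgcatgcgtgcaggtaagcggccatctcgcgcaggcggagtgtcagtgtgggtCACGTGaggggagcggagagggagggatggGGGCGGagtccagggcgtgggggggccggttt

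Among the box H/ACA proteins, DKC1 (chromosome X, 154762864 to 154777689, plus strand) had its tallest control peak inside the gene, and that peak was lower with vitamin C. Covered length was 5743 and 5087 bp in the controls but 2295 and 1085 bp with vitamin C. The first peak of any library began 3008 bp from the start, in control 2. The tallest control peak lay at 11320 and 11322 bp from the start, with labelled levels of 50.2 and 53.0, and at 11300 bp in both vitamin C libraries, with levels of 22.9 and 33.3. The peak over the annotated end reached 2161 and 1885 bp past it in the controls and 1593 bp in vitamin C 1. In vitamin C 2 it reached 502 bp, and a separate peak further on reached 1092 bp. Further peaks lay at 8502 and 9322 bp in control 1 and at 8745 and 9321 bp in control 2, where neither vitamin C library had a peak.

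NHP2 (chromosome 5, 178149463 to 178153885, minus strand) kept most of its peaks. Covered length was 3530 and 3566 bp in the controls, compared with 1949 and 2437 bp after treatment, a mean of 3548 ± 25.5 bp against 2193 ± 345 bp (SD, n = 2). It had 5 and 4 peaks in the controls but 4 and 3 with vitamin C. The peak past its end, with summits 5400, 5395, 5410 and 5402 bp from the start, lies within RMND5B, which overlaps the end of NHP2. The labelled levels there were 34.3 and 27.1 in the controls, against 21.2 and 25.3 with vitamin C.

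GAR1 and NOP10 were hardly opened. At GAR1 (chromosome 4, 109815510 to 109824737, plus strand) 508 and 534 bp were covered in the controls, in a peak 398 to 905 bp from the start in control 1 and 390 to 923 bp in control 2. Neither vitamin C library had a peak there. Vitamin C 1 had 231 bp under a peak past the end of the gene, with 20 fragments at its summit, and vitamin C 2 had none. Without the widening by 1 kb, or without vitamin C replicate 1, GAR1 therefore had a peak in both controls and none with vitamin C. NOP10 (chromosome 15, 34341719 to 34343136, minus strand) had a single peak of 275 bp in control 2, with 9 fragments at its summit, and none in the other 3 libraries, so its level with vitamin C could not be compared at this depth.

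Summits near gene starts made up a lower share of member summits with vitamin C, with overlapping intervals. Of the 45 and 47 member summits in the controls, 8 and 6 lay within 1 kb of a start, and of the 42 and 41 with vitamin C, 4 and 3 did. The shares were 17.8% (95% Clopper-Pearson interval 8.0 to 32.1) and 12.8% (4.83 to 25.7) in the controls and 9.52% (2.66 to 22.6) and 7.32% (1.54 to 19.9) with vitamin C. These intervals cover counting error only and all overlap, and the two-sided exact permutation p was 0.333. They treat summits as independent, although summits cluster by gene. NPM1 alone gave 7 and 9 of the control summits and 16 and 18 of those with vitamin C, so its added peaks enlarge the vitamin C totals. For NOP58, whose strand is not in the tables used here, both ends counted as starts. The difference of -6.85 percentage points was -1.94 in lists of equal length and -1.73 with a window of 500 bp around the start.

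Peaks over the annotated end were common among these genes. Of the 7 members with a known strand and a peak in both controls, 5 had a peak across the end in control 1 and 5 in control 2, against 15.4% and 13.1% of 5890 genes of the same kind. With vitamin C it was 4 of 7 and 3 of 6 members with a peak, against 9.96% and 8.93%. The tallest peak of the gene had its summit past the end at 4 of the 7 in control 1 (NCL, NPM1, NOP56 and FBL), at 3 in control 2, at 5 in vitamin C 1 and at 3 of 6 in vitamin C 2. Over all such genes this share was 15.9%, 15.9%, 16.9% and 16.7%. Neighbouring genes share this sequence at NOP56, FBL and NHP2. The members were also more widely covered. Among genes with a peak in both controls, the median share of the window covered in the controls was 43.7% at members and 3.57% over all protein-coding genes. Peaks over the end were not counted among genes of like coverage.

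Heights were compared at summits of called peaks lying within 50 bp of each other in all 4 libraries, so places that lost their peak with vitamin C do not enter. The members held 8 such summits. At 7 of them both vitamin C levels were below both control levels and at none were they above, against 78.5% and 0.350% of 1714 such summits in the genome, so this count too is near the background. The ratio of vitamin C to control means ran from 0.54 at DKC1 to 0.86 at the summit 20760 bp into NOP58, with a median of 0.74, against 0.72 over all 1714. At that NOP58 summit the levels were 15.9 and 20.01 in the controls, compared with 17.1 and 13.8 after treatment, and the groups overlapped.

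**Figure D4:**
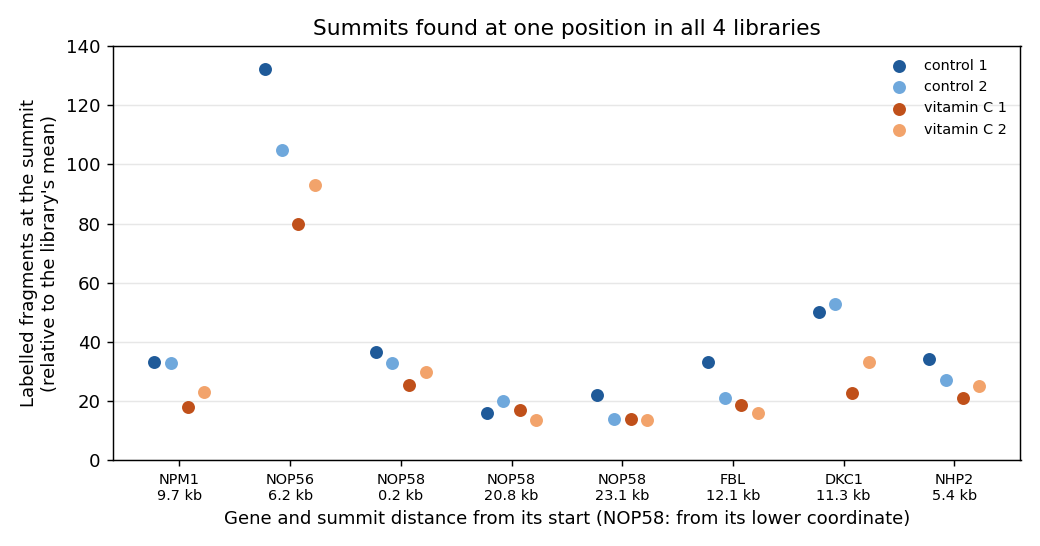
Labelled fragments over each summit found at 1 position in all 4 libraries, relative to the mean of the library, for the 2 controls (blue) and 2 vitamin C libraries (orange). At 7 of the 8 summits both vitamin C points lie below both control points, the NOP58 summit 20760 bp from the lower-coordinate end being the exception.

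The snoRNA genes inside these members were unevenly affected. By position, 14 annotated snoRNA genes lie within NCL, NOP56, NOP58 and DKC1, 10 of the box C/D and 4 of the box H/ACA kind. Peaks met 9 and 8 of them in the controls but 5 and 5 with vitamin C. In both controls 8 were met, against 11.5% of 618 snoRNA genes inside protein-coding genes. In all 4 libraries 3 were met, against 5.18%, and 3 were met in the controls alone, against 3.07%. All 4 hosts had peaks in both controls, and among the 389 snoRNA genes in such hosts these shares were 18.3%, 8.23% and 4.88%. These 4 hosts were also widely covered, at 63.8% (NCL), 76.5% (NOP56), 18.1% (NOP58) and 32.2% (DKC1) of the window in the controls. The median was 3.28% at other protein-coding hosts with a peak in both controls. Hosts of like coverage were not counted apart. Of the 8 met in both controls, 5 lay in NOP56, as did all 3 met in all 4 libraries.

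NOP56 hosts 5 snoRNA genes, SNORD110, SNORA51, SNORD86, SNORD56 and SNORD57 (chromosome 20, 2654212 to 2657010 from the first to the last base), and all 5 were wholly under peaks in both controls. With vitamin C, SNORA51, SNORD56 and SNORD57 stayed wholly covered in both libraries, and SNORD110 and SNORD86 were not covered in either. With vitamin C the peaks that stayed had summits 21 and 2 bases from SNORD57. The nearest control summits were 1866 and 908 bases from it. Each called peak has 1 summit, and in control 1 a single peak of 7739 bp covered all 5 snoRNA genes. SNORD57 lay in a peak of 2169 bp in control 2, against 1793 and 1800 bp with vitamin C. These distances thus also depend on the width of the called peaks, and a shift of opened DNA was not tested. Of the snoRNA bases of NOP56 63.1% were covered in both vitamin C libraries, against 50.5% and 36.03% of its other bases. The control values were 100% of snoRNA bases and 84.6% and 81.5% of the others. With vitamin C the order was the same in NOP58, with 23.4% of snoRNA bases in both libraries and 7.43% and 7.21% of the others. It was the reverse in NCL, with 1.37% and 25.7% of snoRNA bases and 48.0% and 45.1% of the others, and in DKC1, with 0% and 8.89% and 2.29%.

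In NCL, SNORA75 (chromosome 2, 231455800 to 231455936) and SNORD82 (231460368 to 231460442) were wholly covered in both controls. With vitamin C, SNORD82 was covered in vitamin C 2 only, and SNORA75 kept 4 bases under a peak in vitamin C 1. SNORD20 was met in no library. In NOP58, SNORD70 and SNORD70B were met in no library and SNORD11B in control 1 only. SNORD11 (chromosome 2, 202293051 to 202293134) showed the opposite pattern, with all 84 bases covered in both vitamin C libraries and none in the controls. Its nearest control 1 summit lay 76 bases away, so a control peak stood beside it. Of the 618 snoRNA genes, 1 had this pattern, and it is this one.

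DKC1 hosts SNORA36A and SNORA56. SNORA56 was met in no library, and SNORA36A (chromosome X, 154768528 to 154768659) was wholly covered in both controls and not at all with vitamin C. The peak stretching over it ran from 5223 to 5828 bp from the DKC1 start in control 1 and from 5268 to 5828 bp in control 2. Vitamin C 1 kept a peak of 211 bp at 5349 to 5559 bp, ahead of the snoRNA gene, with 29 fragments at its summit. The microRNA gene MIR664B (chrX:154768596-154768656, plus strand) lies within SNORA36A, and its 61 bases lay under peaks in both controls and under none with vitamin C. The hairpin is shown as the part of SNORA36A that RefSeq gives here (GRCh38.p14). It ends with ACA, in capitals, 3 bases before the end of the snoRNA gene, which is where the box that names the H/ACA family lies. In the mature microRNAs the capitals mark the seed, bases 2 to 8.
MIR664B hairpin: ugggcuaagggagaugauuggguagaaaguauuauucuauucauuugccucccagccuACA
hsa-miR-664b-5p: uGGGCUAAgggagaugauugggua
hsa-miR-664b-3p: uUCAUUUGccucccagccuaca

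Another microRNA gene, MIR1292, lies near the start of NOP56 (chromosome 20, 2652777 to 2652842), and none of its 66 bases was covered in any library. Where the summit rather than any base of a peak had to lie within 250 bp of a snoRNA gene, no snoRNA gene of these members was met in both controls and 4 were met in both vitamin C libraries. These were SNORD56, SNORD57, SNORD82 and SNORD11. By any base the counts were 8 in the controls against 4 with vitamin C, and by the summit 0 against 4. SNORD56 and SNORD57 were met by the same summit in each vitamin C library. At SNORA36A the nearest control summits lay 265 and 150 bases away, on either side of the limit. The summit count was not made over all snoRNA genes, so no background share stands beside it.

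**Figure D5:**
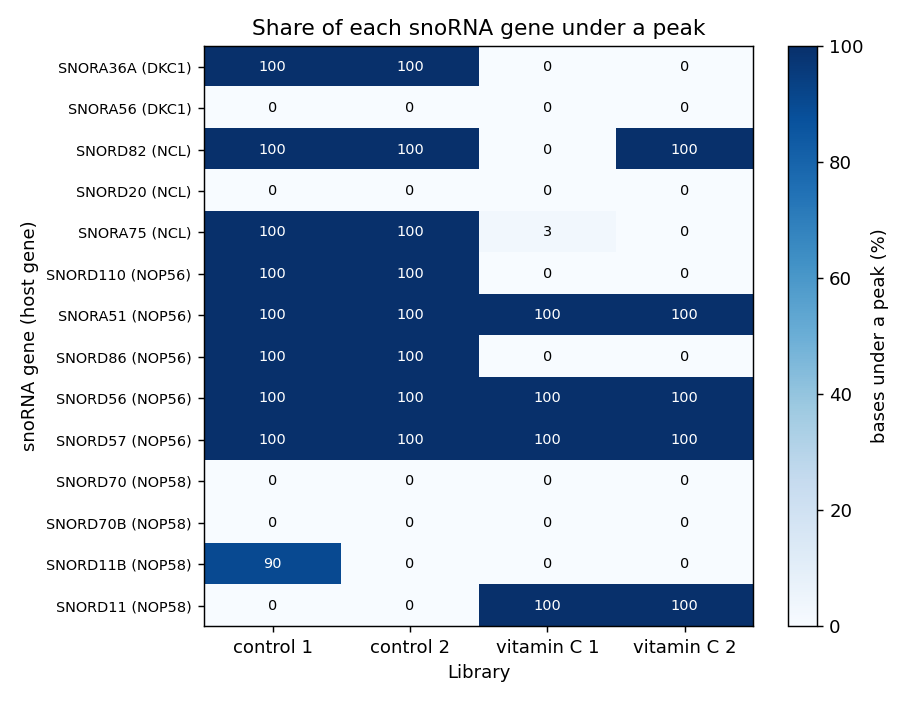
Percent of the bases of each of the 14 snoRNA genes under a peak (colour and printed value) in each library, with the host gene in brackets. SNORA51, SNORD56 and SNORD57 stay at 100% in all 4 libraries, SNORD110, SNORD86 and SNORA36A are covered in the controls only, and SNORD11 with vitamin C only.

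Other nucleolar and snoRNP assembly genes had less coverage in the controls and kept a smaller share of it. Of 66 listed genes, 59 had a peak in both controls. Of these, 36 had one in all 4 libraries (61.0%, against 49.7% of all protein-coding genes with a peak in both controls). Another 16 had none with vitamin C (27.1%, against 26.8%), which is near the background. Covered length was lower at 57 (96.6%, against 90.3%) and higher at 0. The median share of control coverage that remained was 25.7%, close to the 24.4% of all genes. In the controls a median of 7.08% of the window was covered, against 43.7% at the members, both over genes with a peak in both controls. By percent of the window covered in the controls, the first among those with peaks in all 4 libraries were GNL3, TAF1D and FTSJ3. GNL3, which encodes nucleostemin, had 52.8% and 57.1% of its window covered in the controls, against 26.2% and 26.1% with vitamin C. TAF1D, a subunit of the RNA polymerase I selectivity factor, had 55.6% and 53.2% against 25.3% and 30.6%. FTSJ3, a ribosomal RNA processing methyltransferase, had 45.5% and 42.7% against 21.3% and 13.2%.

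By the same percent, the first among the genes without a vitamin C peak were MKI67, which encodes the Ki-67 protein, RRP1B and LYAR. MKI67 had 6.57% and 7.41% covered in the controls, RRP1B 6.0% and 5.42%, and LYAR 5.05% and 3.56%. SNU13, which encodes the other core box C/D protein, was also among the 16 genes without a vitamin C peak. So were NAF1 and SHQ1, which act in the assembly of the H/ACA particles. These genes were picked out after their values were seen. Other snoRNP assembly genes on the list went both ways. ZNHIT3 and RPAP3 had peaks in the controls only, whereas ZNHIT6, RUVBL1, RUVBL2 and PIH1D1 had peaks in all 4 libraries. NUFIP1 had no peak in any library.

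Cytosolic ribosomal protein genes and non-coding snoRNA hosts kept a share of their coverage nearer to that of the members. Of 80 ribosomal protein genes with a peak in both controls, 78 had peaks in all 4 libraries, and a median of 55.7% of control coverage remained. Of 26 non-coding hosts 24 had peaks in all 4, with a median of 55.7%. Of 292 other protein-coding hosts of snoRNA genes 181 did, with a median of 30.0%. The lists also differed in the median share of the window covered in the controls. It was 62.6% at the ribosomal protein genes, 48.6% at the non-coding hosts and 3.28% at the other protein-coding hosts. The genes nearest to NPM1 by percent of the window covered over the 4 libraries were RPL37, RPL19 and RPL27, at distances of 4.42, 9.86 and 10.3 percentage points. RPL37 had 83.3% and 82.7% covered in the controls, compared with 54.0% and 54.1% after treatment. None of these differences between lists was tested.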

How the data were processed

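Peaks are on hg38. MACS2 2.2.7.1, Bowtie2 2.4.5, deepTools, bcl2fastq 2.19, cutadapt and Trim Galore are the tools named, per the submitters' processing notes. What each did is not given in the sources used here. For each labelled library the authors deposited 1 list with positions, a score, a fold enrichment (a linear ratio), −log10 q and −log10 p. The highest q was 0.00999. Between 4.23% and 5.06% of peaks, on other sequences, were left out. Genes and snoRNA genes came from the RefSeq table, strand from its promoter table (8 of the 9 genes). An overlap needed 1 bp. MACS2 derives fold and p from pileup and local background, so both were solved for (tolerance 0.005 in −log10 p; 100% of peaks solved), with vitamin C 1 scaled by 0.776 and the lowest shared background taken as mean depth. Fold percentiles are within a list. All members and their snoRNA genes are named, and, of other nucleolar genes, the 3 with the largest percent covered of each pattern, and the 3 nearest to NPM1. Members and lists were chosen with earlier results of these data known. Group values were compared by exact permutation tests with Benjamini-Hochberg adjustment over genes. The overlap counts and the pileup solution were tested on simulated data. Alternatives were other peak thresholds, equal list lengths, windows, summits, a replicate block and leaving out libraries or members. Python 3.11.15, numpy 2.4.6, pandas 2.3.3 and scipy 1.17.1 were used. Some of the listed cell type genes are not reported here.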

Additional observations from a re-analysis of the deposited data

How the results depend on the processing

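A called peak is a threshold call, and the shorter vitamin C lists bear on each count of bases. In lists of equal length, 5 members were lower, the log2 ratio over the members was -0.55, and the NOP58 difference turned to 624.5 bp (vitamin C minus control); this setting by construction leaves each list as many peaks. Without widening, 1 member had a peak in both controls and none with vitamin C. With summits, 0 snoRNA genes were met in both controls, 4 in both vitamin C libraries and 0 in all 4 libraries. A called peak has 1 summit whatever its width, and no background share was counted by summit. The cause was not tested. With 1 library left out there were 8 to 9 lower members, 0 to 1 members with control peaks only, log2 ratios of -0.94 to -0.73, 8 to 9 snoRNA genes met in the controls, 3 to 4 met in all libraries, and differences in the share near starts of -9.36 to -4.35 points. Leaving out each member gave log2 ratios of -0.95 to -0.77. With a replicate block the log2 ratio was -0.84 and the share differed by -6.85 points, which changed no call; over genes, the replicate differences of the 2 conditions had a correlation of 0.0545. Of 99 single-gene alternatives, 95 kept their direction, 3 left no difference (NOP10) and 1 reversed (NOP58).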
